A study of Mus musculus with 12 samples.

Results

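The Ifi200 cluster is a run of interferon-inducible genes on mouse chromosome 1 that encode PYHIN proteins, and 6 of its genes were followed across fibroblasts that lacked or carried Carm1 and had been starved of glucose or not. The members were Ifi202b, Ifi203, Ifi204, Ifi205, Mndal and Aim2, taken by symbol from a table of 23366 gene symbols. All 6 were in the table. Where a symbol had several transcripts, the transcript was chosen by its highest total count over the 8 libraries, so the total was the only measured value the choice used, and no comparison between groups entered it.

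RNA sequencing had been done on fibroblasts grown out of mouse embryos in 4 groups of 2 libraries. KO-GS cells were Carm1 knockout and glucose starved for 18 h, KO cells were Carm1 knockout in rich medium, WT-GS cells were wild type and starved for 18 h, and WT cells were wild type in rich medium. Carm1 encodes an arginine methyltransferase that acts on histone H3, and the series concerned its part in the response to starvation. All 4 groups were labelled as strain C57BL/6 at passages 3 to 5. Rich medium was DMEM with 10% serum. Starved cells were in DMEM without glucose and with 10% dialyzed serum, so that dialysis changed together with glucose. The labels do not say how many embryos or lines gave each genotype, or whether replicates were separate cultures, and p-values therefore measure only the spread between these libraries.

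PYHIN proteins, also called the p200 family, typically pair a pyrin domain, which binds other proteins, with HIN domains, which bind DNA. Several of them sense DNA that has entered the cytosol or nucleus, and interferons raise the RNA of most of them through STAT and IRF transcription factors, above all in myeloid cells. The mouse cluster has expanded by gene duplication and differs between inbred strains, and Ifi202b in particular is known to be scarce in C57BL/6 mice and abundant in some other strains.

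The proximal promoters of the members are shown because the members fell into groups with distinct behaviour in these libraries. RefSeq promoters of the GRCm38.p6 build, each 250 bases before and 50 after a start site, were found for 5 of the 6 members and for the relatives Mnda and AI607873. Ifi204 had no entry. In the sequences, capitals mark matches, on either strand, to GAAANNGAA (the core of the interferon-stimulated response element, present in 8.56% of 32851 mouse promoters of 300 bases), TTCNNNGAA (the gamma-activated site that STAT factors bind, in 8.3%) or TGANTCA (the AP-1 motif, in 7.81%). No match of one motif overlapped a match of another. The promoters of Ifi202b and Aim2, the genes with at most 6 counts in each wild-type library, and the first of the entries for Ifi203, which fell in starved wild-type cells, were as follows.
Ifi202b, minus strand, chr1:173982795-173983094: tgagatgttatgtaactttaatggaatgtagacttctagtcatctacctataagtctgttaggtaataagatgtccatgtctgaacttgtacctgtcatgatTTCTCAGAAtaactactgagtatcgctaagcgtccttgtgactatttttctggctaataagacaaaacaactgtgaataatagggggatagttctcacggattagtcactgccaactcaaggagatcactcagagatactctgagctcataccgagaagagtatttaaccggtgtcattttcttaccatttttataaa
Aim2, plus strand, chr1:173420354-173420653: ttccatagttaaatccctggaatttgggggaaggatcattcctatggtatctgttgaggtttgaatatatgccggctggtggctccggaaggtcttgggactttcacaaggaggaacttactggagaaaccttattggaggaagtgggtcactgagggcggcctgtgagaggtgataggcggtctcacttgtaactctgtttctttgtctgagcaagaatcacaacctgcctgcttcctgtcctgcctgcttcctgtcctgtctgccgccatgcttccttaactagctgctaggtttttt
Ifi203, minus strand, chr1:173942443-173942742: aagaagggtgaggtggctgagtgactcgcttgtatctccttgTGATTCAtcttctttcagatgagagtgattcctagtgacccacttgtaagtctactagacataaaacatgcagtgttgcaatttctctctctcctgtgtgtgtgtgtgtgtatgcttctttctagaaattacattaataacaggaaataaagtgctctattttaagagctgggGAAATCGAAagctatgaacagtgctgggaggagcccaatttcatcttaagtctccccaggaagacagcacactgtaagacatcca

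The Ifi202b promoter held a gamma-activated site starting 148 bases before the start and no response element core. The Aim2 promoter held none of the motifs. No match says only that these letters are not in this window. The other 3 members with an entry, Ifi203, Mndal and Ifi205, each held the response element core, as did Mnda and AI607873. The 40 bases around the core are given for each of them, since these 5 genes are the ones that starved wild-type cells lowered together with Ifi204.
Ifi203, core starting 35 bases before the start: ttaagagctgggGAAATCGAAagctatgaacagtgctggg
Mndal, core starting 36 bases before the start: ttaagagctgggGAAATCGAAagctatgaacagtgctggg
Ifi205, core starting 134 bases before the start: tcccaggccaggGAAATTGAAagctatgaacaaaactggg
Mnda, core starting 37 bases before the start: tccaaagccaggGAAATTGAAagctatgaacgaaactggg
AI607873, core starting 41 bases before the start: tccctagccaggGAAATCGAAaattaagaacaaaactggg

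The windows of Ifi203 and Mndal were identical at 40 of 40 positions, and those of Ifi205 and Mnda at 37 of 40. Over the whole 300 bases, the first Ifi203 entry and the second Mndal entry were 90.7% identical, and Mnda and AI607873 were 85.9% identical. The other 32 pairs of entries from different genes ran from 43.3% to 56.4%. Ifi205 also held a core on the opposite strand, starting 24 bases after the start, and the other Mndal entry held one starting 53 bases before its start. A motif match is a description of the letters, and binding was not measured in the libraries used here. Related genes can share reads, although the likeness of the transcripts themselves was not measured. How reads with several matches were counted is not stated in the labels, so the values of these genes are uncertain to that extent.

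Total counts ran from 8447014 to 28155431 per library, and 3 counts corresponded to 0.104 to 0.369 CPM (counts scaled to a common library size). KO replicate 1 was the shallowest library, and its group stood apart. The standard deviation of the log2 ratio of the replicates over 13882 genes was 0.908 in KO, against 0.337 to 0.360 in the other groups. Values without KO replicate 1 are therefore given beside results of the members that it changed. For several lists, the range of counts with single libraries left out is given at the end. A fit without a library leaves only 1 library in that group, so its calls and counts rest on the spread of the other groups. Carm1 averaged 56.3 ± 3.35 CPM in KO-GS, 59.4 ± 16.0 in KO, 170 ± 8.0 in WT-GS and 206 ± 2.11 in WT (SD, n = 2 each). It was lower in knockout cells in both media, by -1.59 after starvation and -1.79 in rich medium on the log2 scale (edgeR adjusted p = 0.000419 and 0.000376), but still read there, and the deleted part of the gene is not stated in the labels. Xist, the RNA that marks an inactive X chromosome, had 0 to 6 counts in knockout libraries and 18657 to 23751 in wild-type libraries. The loss of Carm1 therefore cannot be told apart from other differences between the knockout and wild-type cells. All 4 groups carried the label of fibroblasts, but of the defining fibroblast genes Dcn averaged 0.740 CPM in WT-GS and 0.453 CPM in WT, and Lum had 0 counts in both. Others of that list were abundant in wild-type cells, with Col1a1 at 1453 CPM in WT-GS and 2791 CPM in WT and Vim at 2635 and 2169 CPM. In bulk RNA, a lower level in every cell cannot be told apart from fewer cells that express the gene.

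Aim2 and Ifi202b were read abundantly in every knockout library and hardly or not at all in any wild-type library. Aim2 encodes the cytosolic DNA sensor that recruits ASC and caspase-1 into an inflammasome, the complex that matures interleukin-1 and triggers pyroptosis. It had 2595 and 2454 counts in the KO-GS libraries and 1278 and 1774 in the KO libraries, against 6 and 2 in the WT-GS libraries and 0 and 4 in the WT libraries. On the CPM scale these were 104 and 106 in KO-GS, 157 and 82.3 in KO, 0.239 and 0.0693 in WT-GS, and 0 and 0.143 in WT. The genotypes did not overlap in either medium. From the counts, the ratio of starved knockout to starved wild-type cells was 707 (exact 95% Poisson interval 359 to 1639), and that of KO to WT cells was 1274 (497 to 4677). Such intervals, and limits set by a count of 0, account for counting error alone, because reads lacking molecular identifiers can be copies. Both differences passed edgeR's quasi-likelihood test with Benjamini-Hochberg adjustment over all genes (adjusted p = 3.28e-05 after starvation and 4.11e-05 in rich medium), and did so with no filter on low counts (6.73e-07 and 7.87e-07). Aim2 passed that filter only through the knockout libraries, so its adjusted p-values in the filtered fit are a description. The size of both differences rested on few wild-type counts. The fitted log2 difference between the starved genotypes was 9.41, with 10.45 without WT-GS replicate 1 and 8.74 without WT-GS replicate 2. In rich medium it was 10.45, with 9.65 without WT replicate 1 and 9.86 without KO replicate 1, and without WT replicate 2 Aim2 had 0 counts in WT cells.

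Ifi202b encodes p202, a family member with HIN domains but no pyrin domain, which binds DNA and restrains the AIM2 inflammasome. It had 3615 and 3212 counts in the KO-GS libraries, 2074 and 3153 in the KO libraries, and 0 in all 4 wild-type libraries. These were 145 and 138 CPM in KO-GS and 255 and 146 CPM in KO. The transcript was thus read in every knockout library and in no wild-type library. It therefore entered the test, with or without the filter, only through the knockout libraries, so its adjusted p-values are a description. Against the limit that 3 counts over a group set, it was at least 2550-fold higher in KO-GS than in WT-GS cells and at least 2908-fold higher in KO than in WT cells (edgeR quasi-likelihood test, adjusted p = 5.94e-05 and 8.18e-05, and with no filter on low counts 6.99e-07 and 8.25e-07). With 0 counts in both wild-type groups, no effect of starvation on Ifi202b could be measured in wild-type cells. Another transcript row of Ifi202b held identical counts in all 8 libraries. The strain of the cells behind the labels was not tested.

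Starvation did not pass the test for either gene within the knockout. Ifi202b differed by -0.50 ± 0.28 on the log2 scale between KO-GS and KO (SE, edgeR adjusted p = 0.280), and Aim2 by -0.19 ± 0.37 (adjusted p = 0.767). The values of Aim2 in KO-GS lay between those of the KO replicates. Without KO replicate 1 the Ifi202b difference was -0.03, and without KO replicate 2 it was -0.84. With single libraries left out, the Aim2 difference ran from -0.58 to 0.37, so its direction hung on single libraries. In wild-type cells Aim2 differed by 0.85 ± 1.23 between WT-GS and WT (adjusted p = 0.638), from 8 and 4 counts over each group.

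**Figure D1:**
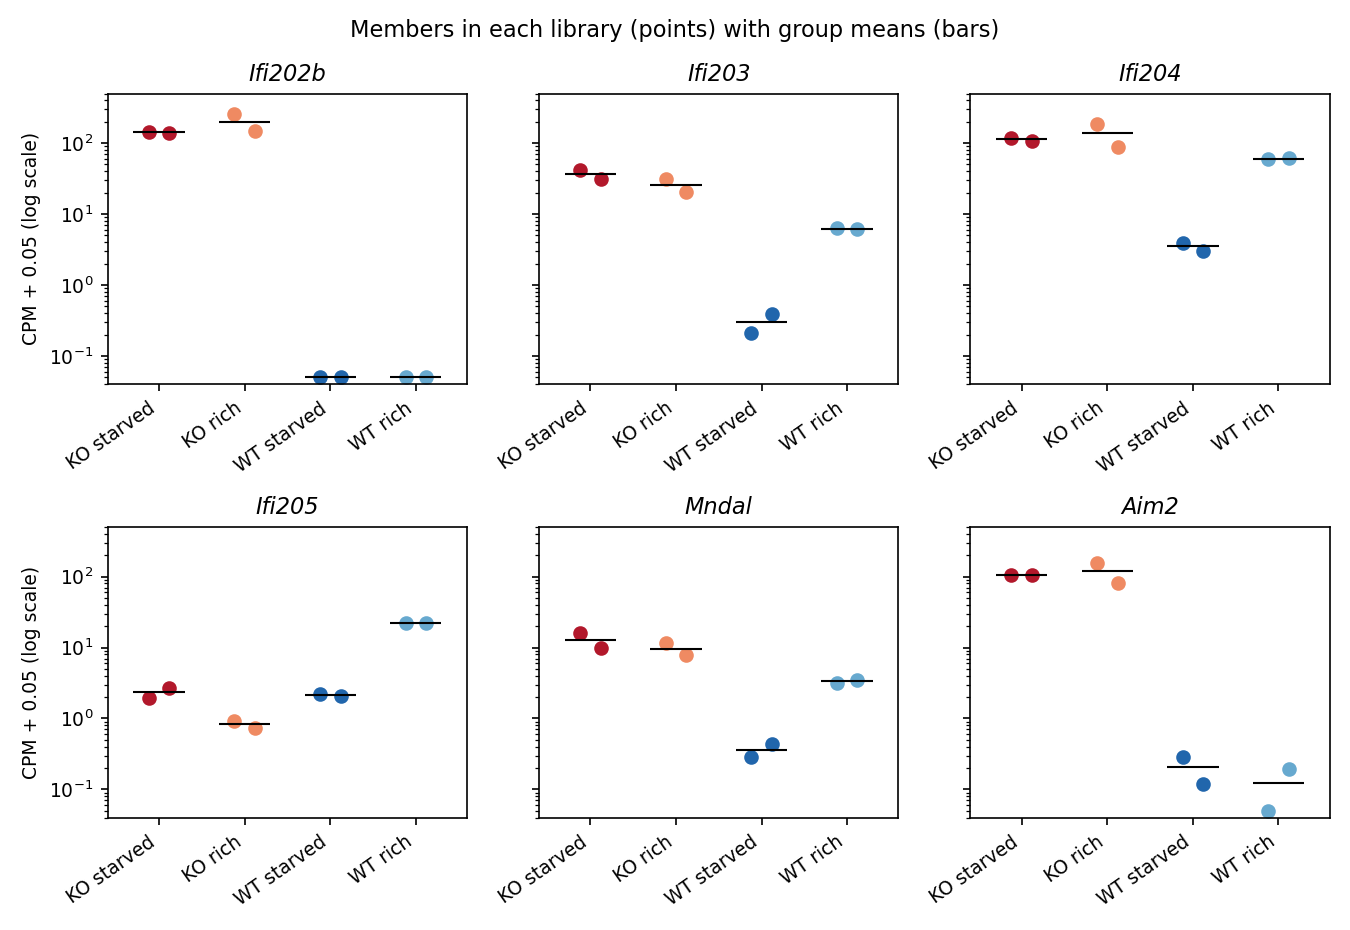
CPM of each member in every library (points, with 0.05 added so that 0 can be drawn on the log axis) and the mean of each group (bars), for knockout (KO) and wild-type (WT) cells, glucose starved or in rich medium. Ifi202b and Aim2 separate the genotypes, Ifi203, Ifi204 and Mndal are lowest in starved wild-type cells, and Ifi205 is highest in wild-type cells in rich medium.

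Ifi204, Ifi203 and Mndal shared another pattern, in which starved wild-type cells held much less of each RNA than any other group. Ifi204 encodes p204, a nuclear and cytosolic DNA sensor often treated as the mouse counterpart of human IFI16, which signals through STING and also takes part in muscle and bone cell differentiation. It had 118 and 107 CPM in KO-GS, 186 and 87.4 in KO, 3.87 and 3.01 in WT-GS, and 60.4 and 60.6 in WT. Only the WT-GS libraries were low, and the KO replicates differed more from each other than those of any other group. Ifi204 was 17.6-fold lower in WT-GS than in WT cells (log2 fold change -4.14 ± 0.37, edgeR adjusted p = 0.000531) and 32.7-fold higher in KO-GS than in WT-GS cells (5.03 ± 0.39, adjusted p = 6.09e-05).

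Ifi203 encodes p203, a nuclear family member whose function is less defined. It had 41.2 and 31.3 CPM in KO-GS, 30.8 and 20.5 in KO, 0.159 and 0.346 in WT-GS, and 6.27 and 6.06 in WT. The WT-GS values came from 4 and 10 counts. The groups were ordered KO-GS, KO, WT and WT-GS, with all neighbours apart in these libraries, though KO-GS against KO did not pass the test. Ifi203 fell 23.4-fold with starvation in wild-type cells (-4.55 ± 0.39, edgeR adjusted p = 0.000473), and it was 138-fold higher in KO-GS than in WT-GS cells (7.10 ± 0.40, adjusted p = 1.71e-05). Without WT-GS replicate 2 these log2 changes were -5.22 and 7.77. Without WT-GS replicate 1 the first was -4.13. The second was 6.69 at its lowest when single libraries were left out.

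Mndal encodes a nuclear family member that resembles human MNDA and slows growth when overexpressed. It had 16.0 and 9.72 CPM in KO-GS, 11.4 and 7.84 in KO, 0.239 and 0.381 in WT-GS, and 3.16 and 3.42 in WT. The knockout groups overlapped each other and lay above both wild-type groups, with WT-GS the lowest. Mndal was 10.3-fold lower in WT-GS than in WT cells (-3.37 ± 0.43, edgeR adjusted p = 0.00173) and 40.3-fold higher in KO-GS than in WT-GS cells (5.33 ± 0.42, adjusted p = 6.51e-05).

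In rich medium the same 3 genes were higher in KO than in WT cells, by smaller amounts. The log2 fold changes were 1.17 ± 0.32 for Ifi204, 2.05 ± 0.28 for Ifi203 and 1.52 ± 0.33 for Mndal (edgeR adjusted p = 0.0232, 0.00130 and 0.00875). Without KO replicate 1 these were 0.49, 1.69 and 1.20, in a fit with no spread within KO. Without either WT replicate the call was lost for Ifi204 (adjusted p = 0.111 and 0.113) and for Mndal (0.0641 and 0.0561).

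Ifi205 ran the other way. It encodes p205, which in mouse macrophages supports expression of the inflammasome adaptor ASC and in mouse preadipocytes favours fat cell formation. It had 1.89 and 2.67 CPM in KO-GS, 0.861 and 0.696 in KO, 2.15 and 2.04 in WT-GS, and 22.1 and 22.2 in WT. Only the WT libraries were high, and KO-GS and WT-GS overlapped. Ifi205 was 29.3-fold lower in KO than in WT cells (-4.87 ± 0.28, edgeR adjusted p = 2.71e-05) and 10.5-fold lower in WT-GS than in WT cells (-3.40 ± 0.23, adjusted p = 0.000222). Between the starved groups the difference was 0.12 ± 0.24 (adjusted p = 0.702). Within the knockout it was 3.01-fold higher in KO-GS than in KO cells (1.59 ± 0.29, adjusted p = 0.0130), from 47 and 62 counts in KO-GS and 7 and 15 in KO. That call was lost without either KO-GS replicate (adjusted p = 0.0504 and 0.0927).

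Counted over the members, 4 of 6 fell and 0 rose in WT-GS against WT cells (edgeR quasi-likelihood test), where 18.0% of all 13882 tested genes were lower and 14.8% higher. In KO-GS against KO cells 1 member was higher and 0 lower, where 8.44% of all genes were higher and 9.77% lower. That count moved with single libraries, and it was 0 without either KO-GS replicate. In the order Ifi202b, Ifi203, Ifi204, Ifi205, Mndal and Aim2, the log2 differences without KO replicate 1 were -0.03, 0.84, 0.38, 1.72, 0.74 and 0.37. Without KO replicate 2 they were -0.84, 0.25, -0.72, 1.40, 0.18 and -0.58. KO against WT gave 5 members higher and 1 lower, where 23.4% of all genes were higher and 20.7% lower. KO-GS against WT-GS gave 5 higher and 0 lower, where 27.8% of all genes were higher and 26.8% lower. The median log2 fold change of the 5 members other than Ifi202b was -3.40 in WT-GS against WT cells, where that of all genes was 0. Over all 6 members, with Ifi202b counted at its lower bound against wild-type cells, the median was 6.22 in KO-GS against WT-GS, 1.79 in KO against WT and 0.12 in KO-GS against KO cells, where those of all genes were -0.02, 0.00 and 0. All 6 members passed the filter on low counts, Ifi202b and Aim2 only through the knockout libraries in which they were high, so these counts and medians are a description. With no filter the member counts were the same.

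**Figure D2:**
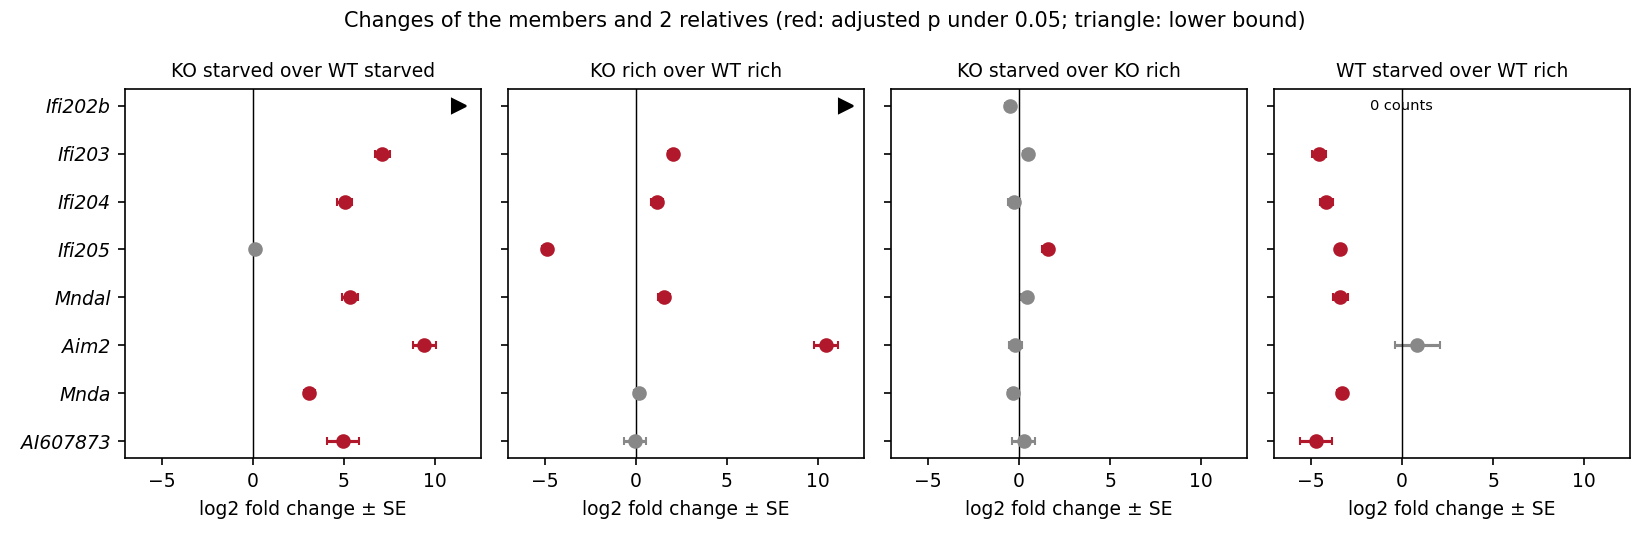
Log2 fold changes (points) with their standard errors (bars) for the members and the relatives Mnda and AI607873 in each comparison, with red marking an adjusted p under 0.05. Triangles are lower bounds for Ifi202b, which had 0 counts in wild-type cells. Ifi203, Ifi204 and Mndal are far above 0 between the starved genotypes, whereas Ifi205 is not, and all 4 are far below 0 for starvation in wild-type cells.

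The response to starvation itself differed between the genotypes for 4 members. The difference, that is the log2 response of the knockout minus that of the wild type, was 5.06 ± 0.48 for Ifi203, 3.86 ± 0.48 for Ifi204, 3.81 ± 0.53 for Mndal and 4.99 ± 0.37 for Ifi205 (edgeR adjusted p = 0.00181, 0.00398, 0.00601 and 0.000773). Those 4 were all higher in this direction, 0 were lower, and 7.43% of all genes were higher and 5.91% lower. In each case the wild-type response was a fall, whereas the knockout response was 0.51 ± 0.27 for Ifi203, -0.28 ± 0.32 for Ifi204 and 0.44 ± 0.31 for Mndal, none of which passed (adjusted p = 0.229, 0.582 and 0.364), and 1.59 for Ifi205. Without KO replicate 1 the knockout responses were 0.84 for Ifi203, 0.38 for Ifi204, 0.74 for Mndal and 1.72 for Ifi205. The differences between the genotypes were then 5.41, 4.55, 4.13 and 5.14, in the same order. Aim2 gave -1.04 (adjusted p = 0.640), and for Ifi202b no difference could be measured.

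Of 16 listed symbols of PYHIN relatives, synonyms included, 6 were in the table and 2 were abundant enough to test. Mnda, which current RefSeq names Ifi211, had 73.2 and 72.9 CPM in KO-GS, 120 and 65.8 in KO, 9.05 and 7.90 in WT-GS, and 82.4 and 83.8 in WT. AI607873, now Ifi207, had 5.74 and 2.45 CPM in KO-GS, 3.69 and 3.25 in KO, 0 and 0.242 in WT-GS, and 2.37 and 4.64 in WT. For both, the WT-GS libraries lay below all others, as for Ifi204. Mnda differed by -3.29 ± 0.28 between WT-GS and WT cells and AI607873 by -4.72 ± 0.87 (edgeR adjusted p = 0.000473 and 0.00682). The AI607873 change was -3.83 without WT-GS replicate 1, and without WT-GS replicate 2 the gene had 0 counts in WT-GS cells. In contrast to Ifi204, neither passed between KO and WT cells (0.15 and -0.04, adjusted p = 0.653 and 0.964), although without KO replicate 1 Mnda was lower in KO, by -0.38. The responses of the genotypes differed by 2.96 ± 0.38 for Mnda and 4.98 ± 1.09 for AI607873 (adjusted p = 0.00427 and 0.0269). Pyhin1 had 10 counts over the 8 libraries, BC094916 had 1, and Pydc3 and Pydc4 had 0.

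Placed in the order of the GRCm38 annotation, the measurable genes formed a stretch in which neighbours differed. Aim2 lies at one end, next to Ifi206, which is not analysed here. Then come BC094916, Pydc4, Pyhin1 and Pydc3, which had at most 10 counts each, and then AI607873, Ifi204, Mndal, Mnda, Ifi203, Ifi202b and Ifi205. The run from AI607873 to Ifi203 had its lowest group mean in WT-GS cells, at 0.698% to 9.13% of the highest group mean of each gene. This is a description, since the share of all genes lowest in WT-GS was not counted and related genes can share reads. Ifi202b, read only in knockout cells, stood next to Ifi205, which in KO was at 3.51% of its WT mean. Outside the cluster, the adjoining coding genes Darc, Cadm3, Olfr433 and Olfr432 had at most 4 counts in any library, so the neighbourhood beyond the cluster could not be compared.

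**Figure D3:**
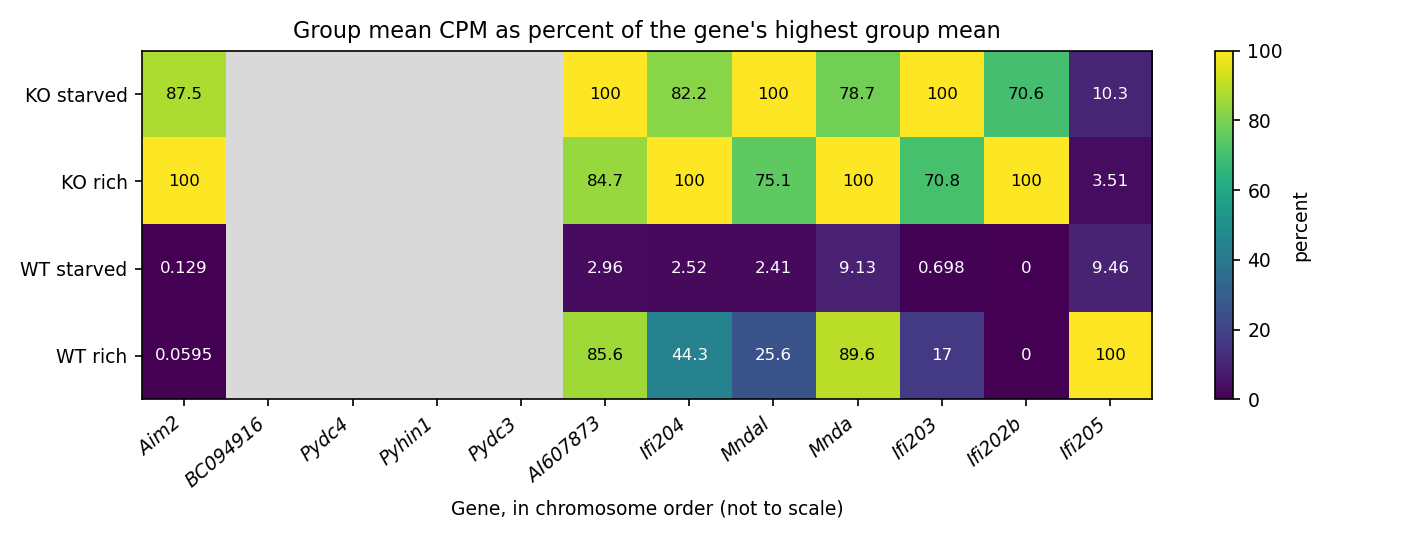
Group mean CPM of each cluster gene as a percent of its own highest group mean, with genes in chromosome order and not to scale, and grey for genes with at most 10 counts over the 8 libraries. The genes from AI607873 to Ifi203 are lowest in starved wild-type cells, while Aim2 and Ifi202b are at or near 0 in both wild-type groups and Ifi205 is highest in wild-type cells in rich medium.

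Genes outside the cluster with the most similar pattern were found by Pearson's r of log2 CPM over the 8 libraries, among 10669 genes. As the libraries form 4 groups, r mainly describes group means. Ifi202b was most like Clec4e, Olr1 and Akr1c18 (r = 1.000 each), all with 0 CPM in both wild-type groups. Aim2 was most like Pou2f2, P2rx3 and Naip2 (r = 0.997 each). Ifi203 and Mndal had the same 3 nearest genes, Zfp462, H3f3b and Serpinb9 (r from 0.991 to 0.998). Serpinb9, an inhibitor of granzyme B, averaged 40.7 ± 2.46 CPM in KO-GS, 33.6 ± 2.20 in KO, 0.965 ± 0.350 in WT-GS and 8.49 ± 0.354 in WT. Ifi204 was most like Pcdh19, Gcnt4 and Ywhaz (r from 0.995 to 0.998), and Ifi205 was most like Phlpp1, Ap2a2 and Atp1b1 (r from 0.976 to 0.980).

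Of 57 tested interferon-stimulated effectors outside the cluster, antiviral genes such as Rtp4, Cxcl10 and Parp12, 42 were lower and 1 higher in WT-GS against WT cells (edgeR), and 45 were lower and 6 higher in KO against WT cells. In KO-GS against WT-GS cells 33 were lower and 7 higher, and in KO-GS against KO cells 13 were lower and 1 higher. The counts in KO-GS against KO moved with single libraries, as did the count over all genes. Of all genes, 18.0%, 20.7%, 26.8% and 9.77% were lower in those comparisons. Their median log2 fold change was -1.95 in WT-GS against WT and -1.68 in KO-GS against WT-GS cells, with genes at 0 counts put at their bounds. Cxcl10, an interferon-induced chemokine, averaged 0.583 ± 0.0877 CPM in KO-GS, 0.154 ± 0.0441 in KO, 4.39 ± 0.331 in WT-GS and 25.4 ± 1.70 in WT. Ifitm3, which blocks virus entry, was one of the 7 that were higher in KO-GS than in WT-GS cells (2.35 ± 0.13, adjusted p = 1.78e-05). The responses of the genotypes differed for 10 of the 57, all higher in the knockout than in the wild type. That count moved with single libraries, as did the count over all genes. Of all genes, 7.43% were higher and 5.91% lower by this test in the fit of all 8 libraries. In that fit the differences were 2.16 ± 0.21 for Lgals3bp, 4.30 ± 0.43 for Cxcl10 and 2.11 ± 0.26 for the RNA sensor gene Ddx58 (edgeR adjusted p = 0.00181, 0.00203 and 0.00400).

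Among 23 tested receptors and transducers of interferon signals, 12 were lower and 1 higher in WT-GS against WT cells, and 9 were lower and 7 higher in KO against WT cells. Of all genes, 18.0% were lower and 14.8% higher in the first, and 20.7% and 23.4% in the second. Stat2 and Irf9 encode subunits of ISGF3, the factor that binds the response element. Irf9 averaged 3.25 ± 0.279 CPM in KO-GS, 4.42 ± 0.506 in KO, 31.3 ± 1.51 in WT-GS and 99.1 ± 8.16 in WT. It was thus low in both knockout groups, in which Ifi204, Ifi203 and Mndal were higher than in wild-type cells (KO against WT -4.47 ± 0.18, edgeR adjusted p = 7.91e-06). Stat2 averaged 5.17 ± 0.726 CPM in KO-GS, 30.8 ± 1.99 in KO, 54.7 ± 5.58 in WT-GS and 119 ± 6.44 in WT, and fell with starvation in both genotypes (-2.58 ± 0.17 in the knockout and -1.12 ± 0.15 in the wild type, adjusted p = 0.000592 and 0.00229). Isg15, a ubiquitin-like target of ISGF3, was lower in KO than in WT cells by a log2 change of -7.15 ± 0.37 (adjusted p = 1.91e-05), which was -7.90 without KO replicate 1 and -6.28 without KO replicate 2.

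Irf1, a transcription factor that binds the same kind of element and responds chiefly to interferon gamma, fell with starvation in wild-type cells and not in the knockout. It averaged 59.2 ± 0.503 CPM in KO-GS, 39.2 ± 6.72 in KO, 19.0 ± 1.05 in WT-GS and 94.9 ± 0.560 in WT. Irf1 fell in starved wild-type cells (-2.32 ± 0.16, edgeR adjusted p = 0.000230), was higher in KO-GS than in KO cells (0.59 ± 0.15, adjusted p = 0.0377), and its responses differed by 2.91 ± 0.22 (adjusted p = 0.000853). The call between KO-GS and KO was lost without any of 6 libraries (highest adjusted p = 0.210), while that of the responses was kept. In rich medium, unlike Ifi203, Ifi204 and Mndal, it was lower in KO than in WT cells (-1.27 ± 0.15, adjusted p = 0.000675). Irf5, a factor of inflammatory gene induction, differed in response by 2.27 ± 0.40 (adjusted p = 0.0138), or 3.01 without KO replicate 2. The receptor subunit genes Ifnar1 and Ifnar2 were higher in KO than in WT cells (0.95 ± 0.12 and 1.25 ± 0.13, adjusted p = 0.000930 and 0.000301), and Ifnar2 differed in response by -0.94 ± 0.18 (adjusted p = 0.0162). Both of these response calls, of Irf5 and Ifnar2, were lost without any of 6 libraries (highest adjusted p = 0.0867 and 0.114). Of 11 interferon genes in the table only Ifnz was abundant enough to test, with 31, 42, 13 and 102 counts over KO-GS, KO, WT-GS and WT, and it was lower in WT-GS than in WT cells (-3.04 ± 0.49, adjusted p = 0.00409). Ifnb1, which encodes interferon beta, had 0 counts in all 8 libraries.

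**Figure D4:**
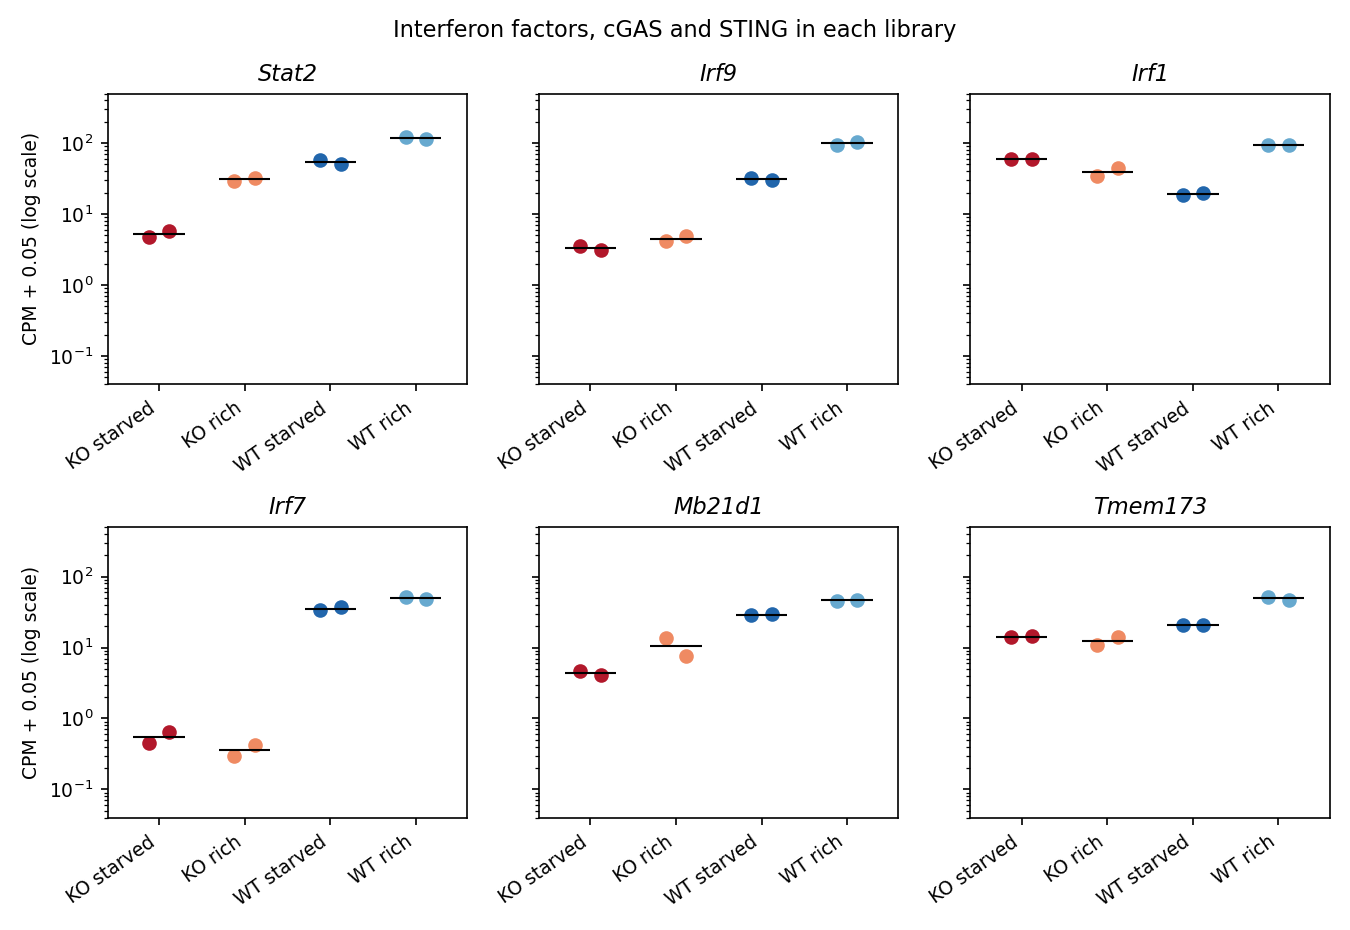
CPM of genes for the interferon transducer Stat2, interferon regulatory factors (Irf9, Irf1, Irf7), cGAS (Mb21d1) and STING (Tmem173) in every library (points, with 0.05 added on a log axis) and group means (bars). Irf9 and Irf7 are lower in every knockout library than in every wild-type library, and Irf1 is lowest in starved wild-type cells.

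Of 21 tested genes of DNA sensing through STING, 9 were lower and 3 higher in KO against WT cells, and 11 were lower and 4 higher in KO-GS against WT-GS cells. Of all genes, 20.7% were lower and 23.4% higher in the first, and 26.8% and 27.8% in the second. Starvation gave 3 lower and 2 higher in WT-GS against WT cells, shares below the 18.0% and 14.8% of all genes. Mb21d1, which encodes the DNA sensor cGAS, averaged 4.33 ± 0.401 CPM in KO-GS, 10.5 ± 4.14 in KO, 28.9 ± 0.727 in WT-GS and 46.1 ± 0.806 in WT. Its knockout levels were lower in both media, whereas those of the sensor genes Aim2 and Ifi204 were higher (KO-GS against WT-GS -2.73 ± 0.27, edgeR adjusted p = 0.000188). Tmem173, which encodes STING, was lower in KO than in WT cells (-1.98 ± 0.18, adjusted p = 0.000175), and its starvation responses differed by 1.42 ± 0.24 (adjusted p = 0.0123). Irf7, the factor that amplifies type I interferon, was lower in KO than in WT cells by -7.22 ± 0.28 (adjusted p = 7.88e-06). Irf3 passed in none of the 5 comparisons (adjusted p from 0.355 to 0.778). Lrrfip1, a nucleic acid binding cofactor, differed in response by 0.85 ± 0.21 (adjusted p = 0.0404). The response calls of Tmem173 and Lrrfip1 were each lost without any of 6 libraries (highest adjusted p = 0.0827 and 0.178).

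Of 13 tested genes of inflammasomes, the complexes of which AIM2 nucleates one kind, 10 were higher and 1 lower in KO against WT cells, and 9 higher and 0 lower in KO-GS against WT-GS cells. Of all genes, 23.4% and 27.8% were higher in those comparisons. Casp4, the mouse caspase-11 that binds bacterial lipopolysaccharide, averaged 34.8 ± 3.91 CPM in KO-GS, 25.6 ± 7.70 in KO, 0.320 ± 0.110 in WT-GS and 0.618 ± 0.0847 in WT (KO-GS against WT-GS 6.76 ± 0.36, edgeR adjusted p = 1.39e-05). Gsdmd, the pore-forming substrate of these caspases, averaged 123 ± 4.37, 52.7 ± 28.0, 13.0 ± 1.26 and 19.7 ± 2.14 CPM in KO-GS, KO, WT-GS and WT, and its responses differed by 1.82 ± 0.47 (adjusted p = 0.0462). Card6, a CARD-domain protein, differed in response by -3.36 ± 0.52 (adjusted p = 0.00826). The Gsdmd response call was lost without any of 6 libraries (highest adjusted p = 0.181) and was 2.52 without KO replicate 2, and that of Card6 was lost without any of 3 (0.0588) and was -2.75 without KO replicate 1. The partners that AIM2 needs to form an inflammasome were scarce. Casp1 had 11 counts over KO-GS, 23 over KO and 0 in both wild-type groups, and Pycard, which encodes ASC, had 7, 5, 28 and 5 counts over KO-GS, KO, WT-GS and WT. Il1b had at most 5 counts over any group.

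Of 20 tested genes for known partners of the p202 and p204 proteins, such as Rb1, Trp53, Myc, Jun and Id2, 9 were higher and 5 lower in KO against WT cells, 11 higher and 4 lower in KO-GS against WT-GS, 5 higher and 4 lower in KO-GS against KO, and 2 higher and 6 lower in WT-GS against WT cells. Of all genes, 23.4% were higher and 20.7% lower in the first, 27.8% and 26.8% in the second, 8.44% and 9.77% in the third and 14.8% and 18.0% in the last. The counts of lower partners between the genotypes were thus near or below the background. The number of partners passing in KO-GS against KO cells moved with single libraries, as did the number over all genes. Myc averaged 599 ± 10.5 CPM in KO-GS, 161 ± 10.3 in KO, 87.3 ± 4.78 in WT-GS and 86.4 ± 2.79 in WT. Its responses to starvation differed by 1.88 ± 0.17, those of Jun by 1.68 ± 0.17 and those of Id2 by 2.10 ± 0.22 (edgeR adjusted p = 0.00143, 0.00201 and 0.00234).

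**Figure D5:**
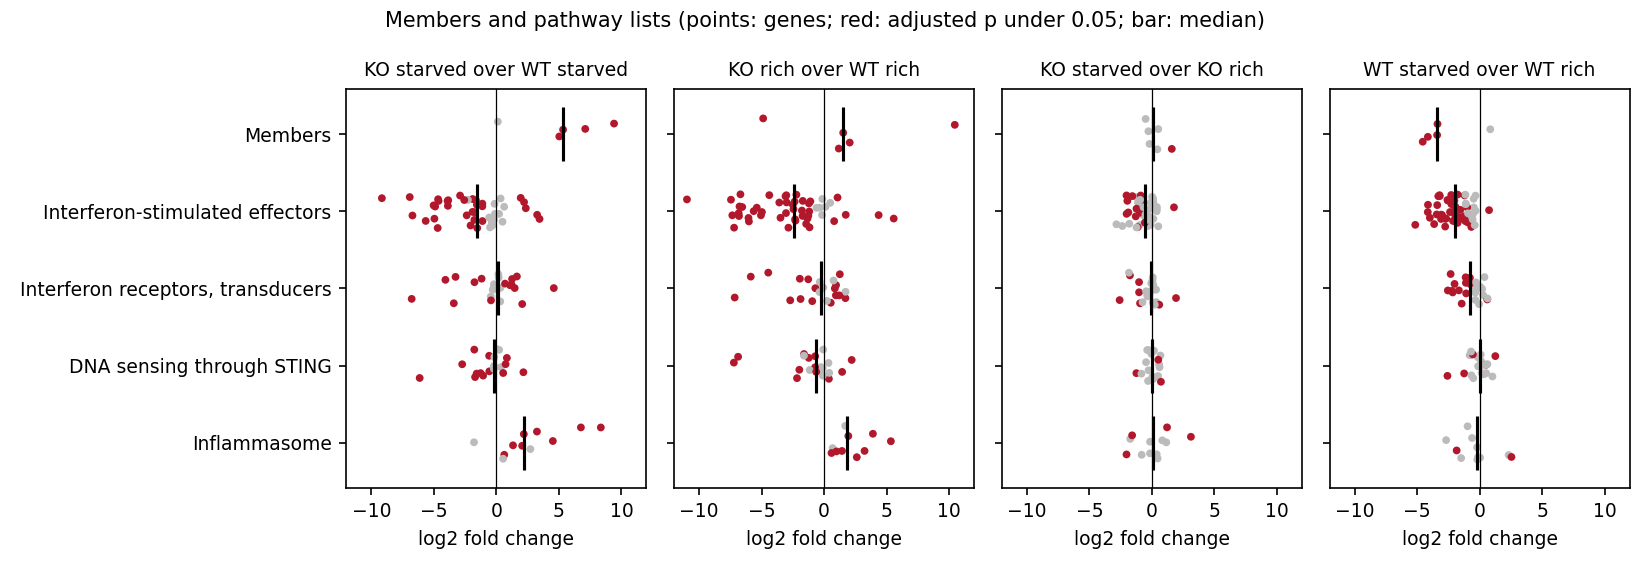
Log2 fold changes of the members and of 4 gene lists in each comparison, with a point for each gene that had counts in both groups compared, red for an adjusted p under 0.05 and a bar at the median of the points drawn. Ifi202b is left out wherever wild-type cells are compared. Between the starved genotypes 33 of 57 effectors were lower in the knockout, where 26.8% of all genes were lower. Of the members 5 of 6 were higher, Ifi202b, which is not drawn, among them, where 27.8% of all genes were higher. Ifi202b and Aim2 passed the filter on low counts only through the knockout libraries.

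Leukocyte genes were measured beside the members, since PYHIN genes are best known in myeloid cells. The summed CPM of 21 leukocyte markers was 26.6 to 29.5 in KO-GS, 17.5 to 38.0 in KO, 11.7 to 11.9 in WT-GS and 10.3 to 10.5 in WT, and 8, 4, 12 and 11 of the 21 had 0 counts in those groups. In the knockout much of the sum was Cd14, which averaged 19.1 CPM in KO-GS, 17.5 in KO, 2.72 in WT-GS and 3.29 in WT. Of 7 leukocyte markers tested, 4 were higher and 1 lower in KO against WT cells. The lower one was Coro1a, at 0.401 CPM in KO and 4.03 CPM in WT. Of all genes, 23.4% were higher and 20.7% lower in that comparison, which is the background for the other marker lists below too. Ptprc, the pan-leukocyte gene for CD45, averaged 0.728 CPM in KO-GS and 0.255 CPM in KO and had 0 counts in wild-type cells, and Tyrobp and Nkg7 had 0 counts in all 8 libraries. Itgam had 87 counts over KO-GS, 94 over KO and 0 in wild-type cells. The sums of 10 endothelial markers were 248 to 250 in KO-GS, 138 to 162 in KO, 36.2 to 39.7 in WT-GS and 82.5 to 88.0 in WT, with Tie1 and Emcn at 0 counts throughout. Of 5 endothelial markers tested, 2 were higher and 3 lower in KO against WT cells. Cdh5 averaged 239 ± 2.18 CPM in KO-GS, 140 ± 19.6 in KO, 0.0173 in WT-GS and 0.0357 in WT, whereas Flt1 averaged 4.05 ± 0.562, 4.71 ± 1.35, 30.0 ± 4.02 and 71.4 ± 3.35 CPM in the same order. The sums of 8 epithelial markers were at most 3.88 in any library, with Cldn4 at 0 in every group. The sums of 14 fibroblast markers were 17263 to 17721 in KO-GS, 17373 to 20329 in KO, 7979 to 8186 in WT-GS and 11498 to 11561 in WT, and 11 of 14 were higher and 1, Col1a1, lower in KO than in WT cells. The part of these cell markers in the members' differences was not tested.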

How the data were processed

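The authors deposited a table of read counts, as whole numbers, for 31055 RefSeq transcripts. Per the submitters' processing notes, TopHat2 2.0.9 and bedtools were used with the mouse mm9 build. Strand, the counted part of a transcript and the treatment of reads with several matches are not stated in the labels or notes. Per symbol, the transcript with the highest total was kept, and library groups were taken from the sample titles. A further 4 chromatin libraries are not analysed here.

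Counts were filtered with filterByExpr, scaled with TMM factors (trimmed mean of M values) and fitted with a mean per group over all 8 libraries in edgeR 4.0.16 (R 4.3.3), with a biological coefficient of variation of 18.5%. Quasi-likelihood tests gave 5 contrasts, with Benjamini-Hochberg adjustment over 13882 genes and a threshold of 0.05. A standard error is the size of a log2 fold change over the root of its F statistic. CPM are on TMM-scaled library sizes. Levels are not compared between genes, since no transcript lengths were used. The fit was tested on simulated counts. Folds against 0 counts use 3 counts over the group as a limit, and ratios from few counts have exact 95% Poisson intervals.

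The members and 11 gene lists were chosen with earlier results of these data known. Named were the members, the PYHIN relatives, for each other list up to 3 passing genes with the smallest p per comparison, and fixed upstream genes of the pathway. Where genes of similar pattern are named, they are the 3 with the highest Pearson r of log2 CPM (prior count 2) per member, among genes with at least 5 CPM in a group. A subset of the genes so named is printed, with Rb1, Trp53, Il1b and cell markers as further examples. One of the fixed upstream genes is not reported here. Alternatives were RLE factors, total counts, no filter, at least 5 CPM in 2 libraries, DESeq2 1.42.0, limma-voom 3.58.1 with quality weights, a replicate block, the compared groups alone, the transcript with the lowest total, and each library left out. Promoters were read from RefSeq and aligned with Biopython 1.88.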

Additional observations from a re-analysis of the deposited data

Results flagged for a closer look

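The responses of the 2 genotypes to starvation differed, by edgeR's quasi-likelihood test of the difference itself, for 4 members and for both relatives tested. The log2 response of the knockout minus that of the wild type was 5.06 for Ifi203, 3.86 for Ifi204, 4.99 for Ifi205 and 3.81 for Mndal, and it was 2.96 for Mnda and 4.98 for AI607873. For all 6 of these genes both WT-GS libraries lay below both WT libraries. This is a description, since the wild-type fall enters the test they passed and the share of all genes separated so was not counted. In the knockout, both KO-GS libraries lay above both KO libraries for Ifi203 and Ifi205, and the groups overlapped for Ifi204, Mndal, Mnda and AI607873.

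Among the pathway genes named, the same test passed for Irf1 at 2.91, Irf9 at 1.20, Irf5 at 2.27, Stat2 at -1.46 and Ifnar2 at -0.94. It passed for Tmem173 at 1.42, Lrrfip1 at 0.85, Gsdmd at 1.82 and Card6 at -3.36. Of the effectors named, it passed for Cxcl10 at 4.30, Lgals3bp at 2.16 and Ddx58 at 2.11, and of the partners for Myc at 1.88, Jun at 1.68 and Id2 at 2.10. When a library was left out, the calls of Irf9, Irf5, Ifnar2, Tmem173, Lrrfip1 and Gsdmd were lost in 6 of 8 cases each, that of Stat2 in 4 and that of Card6 in 3 (highest adjusted p = 0.113, 0.0867, 0.114, 0.0827, 0.178, 0.181, 0.0691 and 0.0588). The calls of Irf1 and of the effectors and partners named were kept in all 8, and that of Cxcl10 was lost under limma-voom with quality weights (adjusted p = 0.111). Over all genes, 13.3% passed in either direction.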

How the results depend on the processing

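The count of members passing was 4 for WT-GS against WT, 5 for KO-GS against WT-GS and 4 for the difference of responses under each alternative run. For KO against WT it was 6, with 4 to 6 when a library was left out and 5 to 6 otherwise. Ifi204 was lost in the fit of the compared groups alone and Mndal under limma-voom with quality weights (adjusted p = 0.104 and 0.175). For KO-GS against KO it was 1, and it was 0 under limma-voom with quality weights and 0 in the fit of those groups alone, in which 0 genes passed edgeR's test and 2803 had an unadjusted p under 0.05. Leaving out a library gave 0 to 5.

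The signs that turned were all of differences that did not pass in the fit reported, and the cause was not tested. With a library left out, Ifi204 in KO-GS against KO ran from -0.72 to 0.38, Aim2 from -0.58 to 0.37, Mnda from -0.70 to 0.17 and AI607873 from -0.49 to 0.74. In KO against WT, Mnda ran from -0.38 to 0.52 and AI607873 from -0.43 to 0.53. Ifi205 in KO-GS against WT-GS ran from -0.15 to 0.35, Aim2 in WT-GS against WT from -0.19 to 4.76, and its difference of responses from -4.94 to 0.012. Other settings gave 0.045 for Aim2 in KO-GS against KO and -0.069 for Mnda in KO against WT (limma-voom), 0.0021 for AI607873 in KO against WT (DESeq2), and -0.0032 for Ifi205 in KO-GS against WT-GS (total counts). The AI607873 difference of responses lost its call without any of 6 libraries (highest adjusted p = 0.117). Of 84 named pathway results 55 were kept under all alternatives and 0 turned.

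List counts moved more. Leaving out a library gave 27 to 53 effectors in WT-GS against WT (43 in the fit reported), 0 to 26 in KO-GS against KO (14) and 3 to 28 for the difference (10). It gave 5 to 21 receptors and transducers (13), 1 to 16 STING genes (5) and 6 to 16 partners (8) in WT-GS against WT, and 2 to 17 partners in KO-GS against KO (9). In KO against WT it gave 7 to 18 STING genes (12), 6 to 12 inflammasome genes (11) and 7 to 17 partners (14), and in KO-GS against WT-GS 7 to 17 STING genes (15), with 6 to 11 inflammasome genes (9). Over all genes it gave 1579 to 9561 in WT-GS against WT (4560), 265 to 8410 in KO-GS against KO (2527), 3370 to 10336 in KO against WT (6116), 5127 to 11435 in KO-GS against WT-GS (7586) and 452 to 8020 for the difference (1853). Quality weights were 0.103 and 0.149 for the KO libraries and 1.64 to 2.35 for the others. Scaling to total counts moved the median of all genes in KO-GS against WT-GS to -0.14.

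With a replicate block the members passing stayed at 4, 1, 6, 5 and 4 in the order WT-GS against WT, KO-GS against KO, KO against WT, KO-GS against WT-GS and the difference. Same-numbered libraries did not deviate together (correlations from -0.03 to 0.06). These correlations cannot show whether such libraries shared a culture or batch, which the labels do not say. A count of 3 corresponded to 0.104 to 0.369 CPM, and lower levels were not detectable at this depth.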
